A study of Mus musculus with 2 samples.

Results

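The cells described are 162 alveolar epithelial cells of mouse lung adenocarcinoma that carried transcripts of Cldn4, a claudin of the tight junction, although the authors' annotation places them in the AT2 class (alveolar type 2, the surfactant-secreting cells). They were chosen by their own UMI counts, as AT2 cells of the CD45-negative library with at least 2 unique molecular identifiers (UMI, counted transcripts) of Cldn4 and at most 2 UMI summed over the cycling genes Mki67, Top2a, Cdk1 and Cenpf. They made up 162 of 1677 AT2 cells of that library, which is 9.66% (exact 95% interval 8.29 to 11.2%), and 162 of 15389 cells in the series. They were set against the 1319 AT2 cells of the same library with no Cldn4 UMI, and against the 285 cells that the authors put in the AT1 class (alveolar type 1, the thin cells of the gas exchange surface). Below, the 162 cells are called Cldn4-expressing AT2 cells or members.

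The series holds 1 library of CD45-negative and 1 of CD45-positive cells, separated with magnetic beads from dissected and dissociated lung tumours of C57BL/6 mice. The cell names of both libraries carry the tag LucOS, which no label explains, and how many mice were used, their age, their genotype and the tumour model are not stated in the labels. All groups compared below therefore share whatever these were, and 1 library holds the cells of each comparison. The series title concerns IL-33 signalling and regulatory T cells, and no label states a question about these epithelial cells. In the CD45-negative fraction 3957 cells with 40873786 UMI were deposited, and 57 cell barcodes, 2 of them of members, occurred in both libraries. With 1 library per fraction there was no replicate, no test and no p-value, and cells were not counted as replicates. All intervals are 95% and cover counting error only. Levels are a gene's summed UMI per 1000000 UMI of the group (CPM), per-cell levels are UMI per 10000 UMI of the cell, and a gene is said to be past 2-fold when the ratio of summed levels reached 2 in either direction.

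AT2 cells make and recycle surfactant, and in adult lung they also act as progenitors that renew themselves and give rise to AT1 cells. In injured mouse lung, AT2 cells on the way to AT1 cells are known to pass through a transitional state marked by keratins such as Krt8 and by Cldn4, Sfn and Clu. In mouse lung adenocarcinoma that starts from AT2 cells, cells with mixed AT2 and AT1 features have been described as well. Cldn4 seals the paracellular space in many simple epithelia and is scarce in resting AT2 cells.

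Because Cldn4 and the cycling genes chose the members in these same cells, every value against AT2 cells without Cldn4 is a description of how that choice divides the class. Cldn4 lies on chromosome 5 of GRCm38, minus strand, at chr5:134945119-134946934. Its level was 352 CPM in the members, 0 by the rule in the AT2 cells set against them, and 658 in the AT1 class. In other classes of the library it was 15.1 in the Ciliated class and 4.46 in the Endothelial class. Of the members 51 had 2 Cldn4 UMI, 32 had 3, 14 had 4, 34 had 5 to 9 and 31 had 10 or more. Just outside the rule stood 182 AT2 cells with 1 Cldn4 UMI, and a further 11 AT2 cells with at least 2 were left out by the cycling limit. The rule counts UMI, so it favours deep cells: the median was 14933 UMI and 3670 genes in members, against 7648 UMI and 2048 genes in AT2 cells without Cldn4 and 14541 UMI and 3368 genes in the AT1 class.

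The members had less surfactant protein C, more of most AT1 markers and more keratin than AT2 cells without Cldn4, and their Krt8 and Krt19 levels were close to those of the AT1 class. Sftpc, the surfactant protein that marks AT2 cells, stood at 36326 CPM in members, 149534 in AT2 cells without Cldn4 and 3713 in the AT1 class. Ager, the receptor that is abundant in AT1 cells, stood at 2782 in members, 1273 in AT2 cells without Cldn4 and 302 in the AT1 class. Krt8, a keratin of simple epithelium, stood at 1824 in members, 381 in AT2 cells without Cldn4 and 1856 in the AT1 class. Against AT2 cells without Cldn4, 1062 of 10161 genes with at least 50 UMI over both groups were past 2-fold higher in members (10.5%) and 388 were past 2-fold lower (3.82%). All tested genes together were shifted, with a median log2 ratio of 0.37, and after scaling on genes with at least 500 UMI the split was 508 higher and 648 lower. Against the AT1 class, 732 of 8936 genes were past 2-fold higher in members (8.19%) and 423 lower (4.73%), with a median log2 ratio of 0.06.

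**Figure D1:**
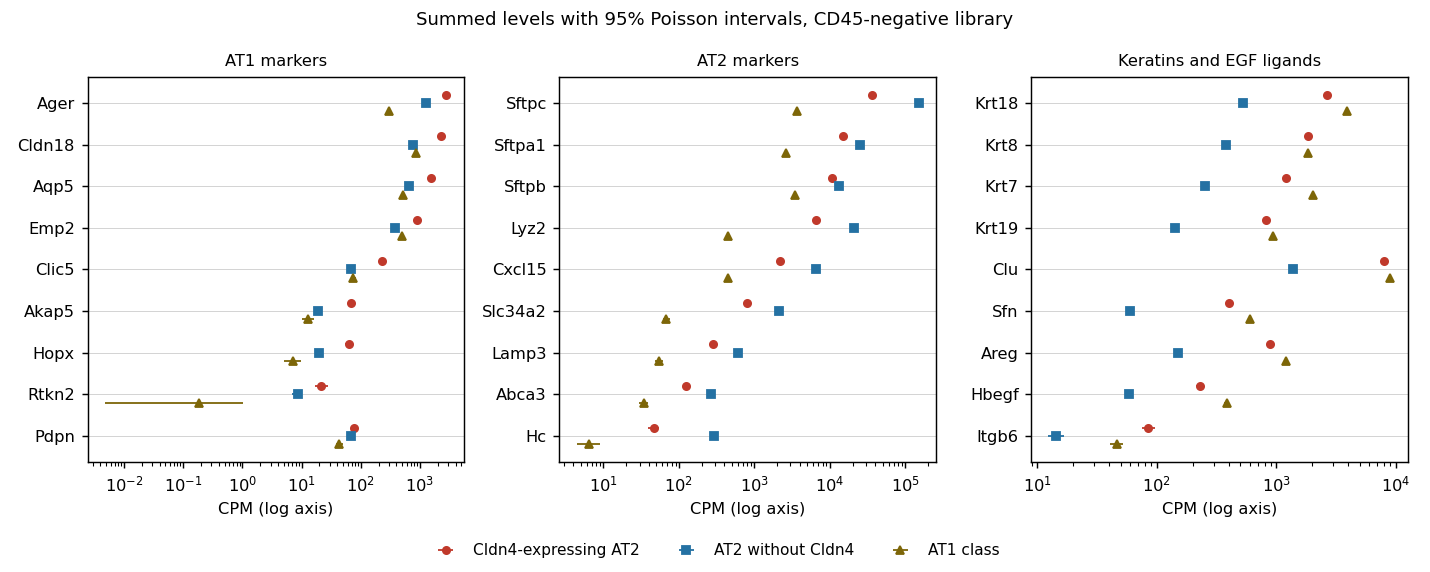
Summed levels in CPM (log axis) of AT1 markers, AT2 markers and keratin and EGF ligand genes in Cldn4-expressing AT2 cells (circles, 162 cells), AT2 cells without Cldn4 (squares, 1319 cells) and the AT1 class (triangles, 285 cells). Bars are 95% Poisson intervals for counting error and are often smaller than the symbol. Most AT1 markers lie farthest right in the members, AT2 markers lie between the other groups, and keratins lie nearer to the AT1 class than to AT2 cells without Cldn4.

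AT1 markers were the first group examined. Of 22 AT1 markers tested, 13 were past 2-fold higher in members than in AT2 cells without Cldn4 and 1 was lower, with a median log2 ratio of 1.17 (all genes 0.37; 8 higher and 2 lower after scaling). The shares over all tested genes were 10.5% higher and 3.82% lower. Cldn18, the claudin of alveolar epithelium, had 2307 CPM in members, 758 in AT2 cells without Cldn4 and 859 in the AT1 class. Aqp5, the water channel of AT1 cells, had 1549 CPM in members, 646 in AT2 cells without Cldn4 and 514 in the AT1 class. Members were thus high in both of these genes, and the other groups lay close together. The ratio over AT2 cells without Cldn4 was 3.04 for Cldn18 (interval 2.95 to 3.14) and 2.40 for Aqp5 (2.31 to 2.48). Ager was 2.19-fold higher (2.13 to 2.24), close to the threshold. Its log2 ratio of 1.13, that of Aqp5 (1.26) and that of the membrane protein gene Emp2 (1.23) went to 0.82, 0.95 and 0.92 after the scaling, just under 2-fold.

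Hopx, a homeodomain cofactor of AT1 cells, had 62.7 CPM in members, 19.8 in AT2 cells without Cldn4 and 7.09 in the AT1 class. Akap5, a kinase anchor used as an AT1 marker, had 68.8 in members, 18.7 in AT2 cells without Cldn4 and 12.9 in the AT1 class. Rtkn2 had 67 UMI in members, which is 21.6 CPM, against 8.55 CPM in AT2 cells without Cldn4 and 1 UMI in the whole AT1 class. Without the member holding most Rtkn2 UMI its ratio over AT2 cells without Cldn4 was 1.79, in place of 2.53. Pdpn, another AT1 surface protein, differed little, with 77.5 CPM in members and 68.1 in AT2 cells without Cldn4, a ratio of 1.14 (0.983 to 1.31) whose log2 of 0.19 turns below 0 after the scaling. Cav1, the caveolin of AT1 and endothelial cells, was at 58.5 in members and 77.3 in AT2 cells without Cldn4, far from the 1197 of endothelial cells. Igfbp2, which marks late AT1 cells in mouse, had 0 UMI in members (3 counts would be 0.969 CPM) and 5.18 CPM in AT2 cells without Cldn4. AT1 markers were thus not all higher in members. Hopx, Emp2 and Clic5 are not restricted to epithelium in this library, where endothelial cells had 98.4, 1577 and 411 CPM, whereas endothelial cells had 102 of Ager, 34.0 of Aqp5 and 50.2 of Cldn18.

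The AT1 class itself went against its label in several AT1 markers. Ager, Hopx, Rtkn2, Aqp5, Akap5 and Pdpn were lower there than in AT2 cells without Cldn4. Emp2 and Clic5 were not, with 504 and 75.2 CPM in the AT1 class and 378 and 68.2 in AT2 cells without Cldn4. Of 20 AT1 markers that could be compared in all groups, members lay above both other groups in 15, and in 9 of them they were past 2-fold above both; over all 8820 genes comparable in this way 126 were past 2-fold above both (1.43%). That count of 126 was 74 after scaling, 224 with means of per-cell levels, 74 for members above Sftpc background and 286 for those at background. Ager was 9.21-fold (8.73 to 9.72) and Hopx 8.84-fold (6.22 to 12.9) higher in members than in the AT1 class. Summed per cell, AT1 markers had a median of 131 in members, 29.6 in AT2 cells without Cldn4 and 110 in the AT1 class. With a shorter list the medians were 61.4 in members, 21.8 in AT2 cells without Cldn4 and 24.9 in the AT1 class. The AT1 class was high in S100a6, a calcium-binding protein, whose part in these sums was not tested. S100a6 had 4378 CPM in members, 706 in AT2 cells without Cldn4 and 9317 in the AT1 class. The AT1 class also held genes that the members almost lacked. Hmga2, a chromatin protein of progressed lung adenocarcinoma, had 1 UMI in members, which is 0.323 CPM, and 27.2 CPM in the AT1 class. Aldh1a3 had 1.29 CPM in members and 74.8 in the AT1 class, and the collagenase gene Mmp13 had 2.26 in members and 47.4 in the AT1 class. Tslp, the cytokine of barrier epithelia, had 5.49 in members and 112 in the AT1 class. Sox9, a transcription factor of distal lung progenitors, had 1.94 in members and 26.5 in the AT1 class. The AT1 class is therefore referred to by its deposited name only, and its levels were not read as those of normal AT1 cells.

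AT2 markers were lower in the members. Of 20 tested, none was past 2-fold higher than in AT2 cells without Cldn4 and 14 were past 2-fold lower, with a median log2 ratio of -1.19. The shares over all tested genes were 10.5% higher and 3.82% lower. In all 19 comparable markers the members lay between AT2 cells without Cldn4 and the AT1 class, as they did in 4347 of all 8820 comparable genes. Lyz2, the lysozyme of AT2 cells and macrophages, had 6496 CPM in members, 21111 in AT2 cells without Cldn4 and 449 in the AT1 class. Slc34a2, the phosphate transporter of AT2 cells, had 797 CPM in members, 2089.9 in AT2 cells without Cldn4 and 67.7 in the AT1 class. The lamellar body genes Abca3 and Lamp3 had 124 and 285 CPM in members and 266 and 609.6 in AT2 cells without Cldn4. Complement C5 (Hc) was among the markers that fell most, with 46.2 in members and 288 in AT2 cells without Cldn4, a log2 ratio of -2.64. Sftpb and Sftpa1 were held better than Sftpc: Sftpb had 10577 CPM in members and 13050.0 in AT2 cells without Cldn4, and Sftpa1 had 15074 in members and 24953 in AT2 cells without Cldn4. Both were far above endothelial cells, at 369 and 662. Nkx2-1, the transcription factor that maintains lung epithelial identity, had 332 in members, 268 in AT2 cells without Cldn4 and 118 in the AT1 class, and its log2 ratio of 0.31 over AT2 cells without Cldn4 is no larger than the 0.31 that the scaling removes.

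Genes of lipid synthesis that feed surfactant followed the AT2 markers in part. Of 23 tested, none was past 2-fold higher in members than in AT2 cells without Cldn4 and 6 were lower, with a median log2 ratio of -0.32. For comparison, 10.5% of all tested genes were higher and 3.82% lower, with a median log2 ratio of 0.37. Fasn, the fatty acid synthase, had 92.7 CPM in members and 268 in AT2 cells without Cldn4, and the desaturase Scd1 had 767 in members and 2170.3 in AT2 cells without Cldn4. The elongase Elovl1 and the fatty acid carrier Fabp5 had log2 ratios of -1.51 and -1.53. Genes of MHC class II presentation, which AT2 cells also express, were kept: all 8 tested were past 2-fold higher than in the AT1 class and none was past 2-fold from AT2 cells without Cldn4, where the median log2 ratio of 0.28 lies under the 0.31 that the scaling removes. Against the AT1 class 8.19% of all tested genes were past 2-fold higher. Cd74, the invariant chain, had 10851 CPM in members, 8678 in AT2 cells without Cldn4 and 2718 in the AT1 class. Endothelial cells, which do not make Sftpc, had 3772 CPM of it, about the 3713 of the AT1 class.

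Seen cell by cell, the members were not uniform in surfactant. Sftpc per 10000 UMI had quartiles of 26.7, 86.0 and 365 in members, against a median of 1538 in AT2 cells without Cldn4 and 24.3 in the AT1 class. The 95th percentile of endothelial cells, which do not make Sftpc, was 69.6 per 10000, and 84 of 162 members (51.9%, 43.9 to 59.8%) exceeded it, against 1264 of 1319 AT2 cells without Cldn4 (95.8%) and 20 of 285 cells of the AT1 class (7.02%). For the other 78 members the AT2 name rests on the authors' annotation and not on Sftpc. Ager exceeded its own endothelial 95th percentile, 3.24 per 10000, in 149 members (92.0%), in 939 AT2 cells without Cldn4 (71.2%) and in 76 cells of the AT1 class (26.7%). Both genes were above these levels in 77 members (47.5%), and Ager without Sftpc in 72 members (44.4%), against 888 (67.3%) and 51 (3.87%) of AT2 cells without Cldn4. The line for Sftpc cut through a continuum, with 8 members within 1.5-fold below it and 14 within 1.5-fold above it. Both lines come from endothelial cells with a median of 6808 UMI, against 14933 in members. The part of this depth difference in the shares above was not tested.

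**Figure D2:**
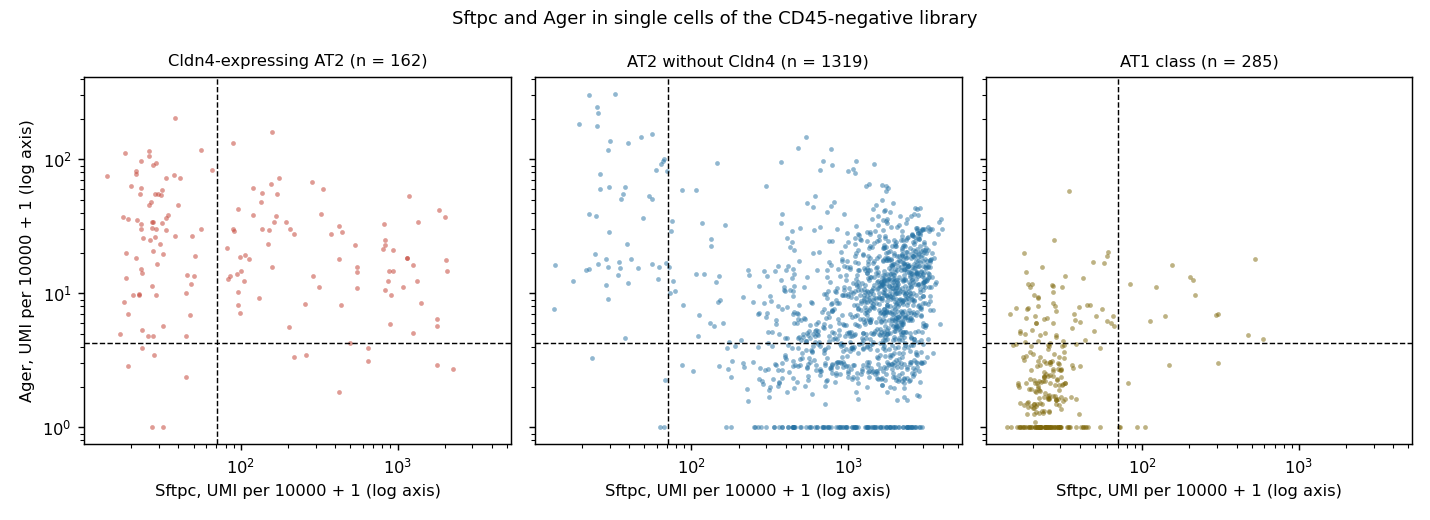
Sftpc (x axis) and Ager (y axis) in single cells of the CD45-negative library, as UMI per 10000 plus 1 on log axes, for Cldn4-expressing AT2 cells, AT2 cells without Cldn4 and the AT1 class. Dashed lines mark the 95th percentile of endothelial cells. Members spread over the whole Sftpc range with Ager mostly above its line, AT2 cells without Cldn4 crowd at high Sftpc, and most cells of the AT1 class (70.9%) lie below both lines.

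The members at Sftpc background and those above it differed in depth and in several gene groups, given here as a description because Sftpc made the split. The 78 cells at background had a median of 13023 UMI and the 84 above it 17471.5 UMI. The summed level of the simple keratins had a median of 69.7 per 10000 in members at background and 38.7 in those above it, and the summed AT1 markers had a median of 170 in members at background and 97.9 in those above it. Krt8 was at 2285 CPM in members at background and 1493 in those above, Areg at 1278 in members at background and 610.3 in those above, and Clu at 11341 in members at background and 5616 in those above. Slc34a2 was at 257 in members at background and 1186 in those above. Sftpb stayed at 6145 in members at background, against 13769.6 in those above and 369 in endothelial cells. Nkx2-1 was at 332 in members at background and 332 in those above. Across the 162 members Sftpc and Krt8 per UMI had a Spearman rho of -0.48, Sftpc and Ager -0.20, and Ager and Hopx 0.51, as descriptions of cells of 1 library that differ in depth.

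Transitional genes formed the group with the largest median difference from AT2 cells without Cldn4. Of 25 tested, 17 were past 2-fold higher in members and 1 was lower (Lcn2), with a median log2 ratio of 2.24 (15 higher and 2 lower after scaling). For all tested genes the shares were 10.5% higher and 3.82% lower. In 22 of 24 comparable transitional genes the members lay between AT2 cells without Cldn4 and the AT1 class, as they did in 4347 of all 8820 comparable genes. Krt18 had 2672 CPM in members, 527 in AT2 cells without Cldn4 and 3862 in the AT1 class, and Krt19 had 825 in members, 141 in AT2 cells without Cldn4 and 934 in the AT1 class. Krt7, on chromosome 15 (chr15:101411043-101430313), had 1211 CPM in members, 256 in AT2 cells without Cldn4 and 2018 in the AT1 class, a ratio of 4.74 over AT2 cells without Cldn4. The keratins were found throughout the members: Krt8 had a UMI in all 162, and its per-cell quartiles were 7.50, 16.3 and 23.6 per 10000 in members, against a median of 2.14 in AT2 cells without Cldn4 and 14.9 in the AT1 class. After thinning each cell to 4000 UMI, Krt19 was seen in 75.9% of members and 28.7% of AT2 cells without Cldn4, with 9.29% in endothelial cells. Unthinned, it was seen in 93.8% of members, 43.9% of AT2 cells without Cldn4 and 15.7% of endothelial cells.

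Clu, a secreted chaperone, was the most abundant gene of the group, with 8013 CPM in members, 1384 in AT2 cells without Cldn4 and 8933 in the AT1 class. Sfn, the 14-3-3 sigma protein of stressed epithelia, had 405 in members, 60.4 in AT2 cells without Cldn4 and 603 in the AT1 class. Itgb6, the integrin chain that activates latent TGF-beta, had 85.3 in members, 14.4 in AT2 cells without Cldn4 and 46.5 in the AT1 class, and Tgfb2, one of the latent ligands, had 28.8 in members, 5.81 in AT2 cells without Cldn4 and 4.29 in the AT1 class. Both lay above both other groups, Tgfb2 past 2-fold. Of 16 tested genes of the TGF-beta, integrin and YAP target list, 9 were past 2-fold higher in members and none was lower, with a median log2 ratio of 1.61; Cyr61 and Thbs1, secreted YAP targets, were at 219 and 300.1 CPM in members and 35.6 and 53.1 in AT2 cells without Cldn4. Lcn2, the lipocalin that binds siderophores, is listed among transitional genes but was lower, with 982 in members, 3497 in AT2 cells without Cldn4 and 98.1 in the AT1 class. Of p53 and its targets 4 of 19 tested were past 2-fold higher and none lower, with a median log2 ratio of 0.56. After scaling 2 were higher and 1 was lower. Beside this list and the TGF-beta list, 10.5% of all genes were higher and 3.82% lower, with a median log2 ratio of 0.37. Cdkn1a, the cell cycle inhibitor target of p53, was at 154 in members and 104 in AT2 cells without Cldn4.

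Some genes of the EGF family were higher in members, as counted below. Areg, the ligand amphiregulin on chromosome 5 (chr5:91139599-91148432), had 889.8 CPM in members, 150.2 in AT2 cells without Cldn4 and 1196 in the AT1 class. The ratio over AT2 cells without Cldn4 was 5.92 (5.59 to 6.28), and 140 of 162 members had an Areg UMI. Hbegf, another ligand of the EGF receptor, had 228 in members, 58.9 in AT2 cells without Cldn4 and 384 in the AT1 class. Of 8 tested ligands and receptors 4 were past 2-fold higher in members and none was lower (2 higher after scaling). Of 17 tested genes that report RAS and MAPK signalling 9 were past 2-fold higher and 1, the AT2 factor Etv5, was lower (7 higher after scaling). Among them Phlda1 had 1206 CPM in members and 290.1 in AT2 cells without Cldn4. Beside the EGF and RAS-MAPK counts, 10.5% of all tested genes were higher and 3.82% lower, with a median log2 ratio of 0.37. Between AT2 cells without Cldn4 and the AT1 class lay 6 of 8 EGF genes and 15 of 17 RAS-MAPK genes, where 4347 of all 8820 comparable genes did so.

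Of 20 immediate early and dissociation stress genes 16 were past 2-fold higher in members than in AT2 cells without Cldn4 and none was lower, with a median log2 ratio of 1.48 (12 higher after scaling). For comparison, 10.5% of all tested genes were higher and 3.82% lower. Fos had 369 CPM in members, 124 in AT2 cells without Cldn4 and 391 in the AT1 class, and Atf3 had 192 in members, 31.8 in AT2 cells without Cldn4 and 312 in the AT1 class. Such genes are known to respond to tissue dissociation, and the part of that response in the keratin, EGF ligand and MAPK values was not tested. The difference depended on depth for Fos: among cells within the quartile range of the members' depth its log2 ratio was 0.34 in place of 1.58, while those of Atf3, Krt8 and Areg were 1.88, 2.42 and 2.71. In the CD45-positive library 2 of 20 of these genes were past 2-fold higher, against a background there of 7.2%.

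Fos, Junb and Atf3 are subunits of AP-1 or bind with it, and the Cldn4 promoter holds a pair of matches to the AP-1 motif TGANTCA, which reads the same on both strands when N is set aside. The stretch upstream of the start is shown because Cldn4 defines the cells; capitals mark the matches, which begin 240 and 158 bases before the start, and the letters are from RefSeq on GRCm38.p6, chr5:134947065-134947184, minus strand.
Cldn4 promoter: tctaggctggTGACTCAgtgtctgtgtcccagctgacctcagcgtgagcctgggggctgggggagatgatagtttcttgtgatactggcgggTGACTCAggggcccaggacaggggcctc
Windows of the same kind (250 bases before to 50 after the start) held the motif in 8.97% of 27025 genes. Of the 10161 tested genes 7847 had such a window, and 6.32% of these held the motif. Of the 1062 genes past 2-fold higher in members 776 had a window, and the share was 10.8%. A match is a match of letters only, and binding was not measured.

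**Figure D3:**
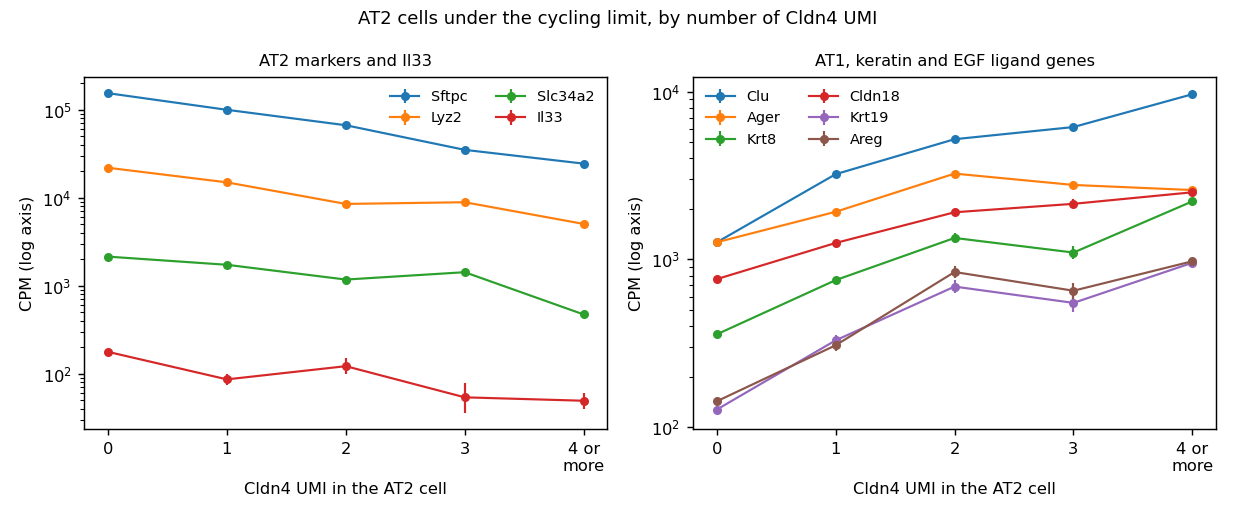
Summed levels (CPM, log axis, with 95% Poisson intervals) in AT2 cells under the cycling limit with 0, 1, 2, 3 and 4 or more Cldn4 UMI (1276, 182, 51, 32 and 79 cells). AT2 markers are lower and keratin, AT1 and EGF ligand genes higher already in cells with 1 UMI, which the rule leaves out.

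The threshold of 2 UMI cut into a gradient. With 0, 1, 2, 3 and 4 or more Cldn4 UMI, Sftpc stood at 153683, 99535, 66471, 34927 and 24363 CPM. Krt8 stood at 357, 752, 1342, 1098 and 2219, and Areg at 142, 307, 841, 650.3 and 975. Cells with 1 UMI, just outside, were thus between cells with 0 and 2 in each of these genes. Ager did not follow the Cldn4 count inside the group, with 1265, 1923, 3248, 2779 and 2592 CPM, whereas Cldn18 had 763, 1253, 1910.0, 2145 and 2513. The median depth was 7626, 9748, 11549, 10529.5 and 18787 UMI in these sets, so depth moved with the Cldn4 count and its part in the gradient was not tested.

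A second kind of gene was high in the sum because of a few cells. Gkn2, gastrokine 2 of the stomach lining (chr6:87373357-87379497), had 271 CPM in members, 12.4 in AT2 cells without Cldn4 and 6.90 in the AT1 class, and was the gene farthest above both. Only 21 of 162 members had a Gkn2 UMI, 1 cell held 365 of the 838 UMI and 5 cells held 91.9%. Without the first of these cells its ratio over AT2 cells without Cldn4 was 12.4 in place of 21.8. After thinning, Gkn2 was seen in 8.02% of members, 1.67% of AT2 cells without Cldn4 and 0.400% of endothelial cells. It was confined to members above Sftpc background apart from 4 UMI, so its log2 ratio over AT2 cells without Cldn4 was -2.01 and that over the AT1 class -1.16 for the members at background. Gkn2 thus marks few of the cells rather than the group.

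Ccl20, the chemokine that attracts CCR6-bearing lymphocytes, had 501 CPM in members, 27.4 in AT2 cells without Cldn4 and 2.98 in the AT1 class, with 1552 UMI in 20 cells, of which 5 cells held 96.7%. The chemokine gene Ccl9 had 192 UMI in 4 cells, and all but 1 UMI lay in members at Sftpc background, so its log2 ratio over AT2 cells without Cldn4 was -1.50 for members above background. Dlk1, a Notch-related surface protein, had 701 UMI in 14 cells, nearly all above Sftpc background. The mucin-like Dpcr1 had 67 of its 82 UMI in 1 cell, and Tff1, a trefoil peptide of the stomach, had 174 UMI in 3 cells; without the first cell its log2 ratio was -0.51 in place of 1.40. Gkn2 and Ccl20 were seen together in 3 cells. By contrast Areg had 2754 UMI in 140 cells, of which the first held 4.50%, Ager 8610 UMI in 160 cells and Krt8 5647 UMI in 162 cells. Of 23 gastric and gut lineage genes 18 were in the count table and 9 could be tested, of which 5 were past 2-fold higher in members than in AT2 cells without Cldn4 and none lower. In the CD45-positive library 5 could be tested, of which 1 was higher and 1 lower, with a median log2 ratio of -0.62.

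**Figure D4:**
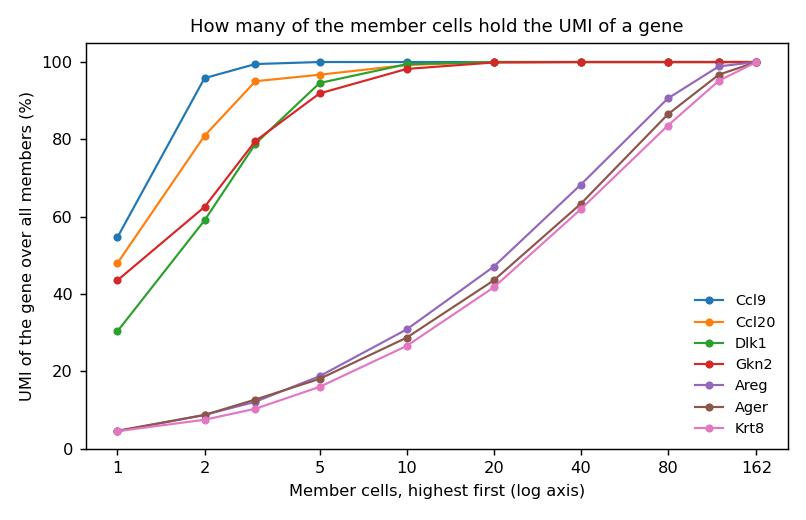
Share of a gene's UMI over all 162 members (y axis, %) held by the first cells when members are ranked by that gene (x axis, log scale). Ccl9, Ccl20, Dlk1 and Gkn2 are above 90% within 5 cells, whereas Areg, Ager and Krt8 are under 20% there.

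Other genes led the ratios over AT2 cells without Cldn4, and most were seen in more members; the shares of cells given for them are after thinning to 4000 UMI. Procr, the endothelial protein C receptor, had 130.2 CPM in members, 8.87 in AT2 cells without Cldn4 and 408 in the AT1 class. It was seen in 19.1% of members, 2.65% of AT2 cells without Cldn4 and 2.96% of endothelial cells (unthinned 48.1% of members, 6.07% of AT2 cells without Cldn4 and 5.68% of endothelial cells). Ntm, a neuronal cell adhesion protein, had 31.0 in members, 1.26 in AT2 cells without Cldn4 and 83.4 in the AT1 class. It was seen in 11.1% of members, 0.455% of AT2 cells without Cldn4 and 0.480% of endothelial cells (unthinned 26.5% of members, 0.910% of AT2 cells without Cldn4 and 1.04% of endothelial cells). Krtap17-1, a gene of the keratin-associated family, had 235 in members, 22.4 in AT2 cells without Cldn4 and 184 in the AT1 class. It was seen in 30.9% of members, 4.32% of AT2 cells without Cldn4 and 0.721% of endothelial cells (unthinned 50.6% of members, 7.05% of AT2 cells without Cldn4 and 1.76% of endothelial cells). Fn1 (fibronectin), Pdk4 (a kinase that restrains pyruvate oxidation) and Ido1 (a tryptophan-degrading enzyme) had ratios of 8.16, 11.8 and 15.5. Ido1 was again a gene of few cells, with a UMI in 31 members, of which 5 held 67.9% of its UMI. Among the 12 genes farthest above both other groups, Ifit3, an antiviral effector, had 109 CPM in members, 21.3 in AT2 cells without Cldn4 and 20.5 in the AT1 class. It was seen in 22.8% of members, 6.07% of AT2 cells without Cldn4 and 10.1% of endothelial cells (unthinned 45.7% of members, 10.8% of AT2 cells without Cldn4 and 17.2% of endothelial cells). Irf7, the regulator of interferon genes, had 88.2 in members, 17.7 in AT2 cells without Cldn4 and 23.9 in the AT1 class. It was seen in 24.7% of members, 7.20% of AT2 cells without Cldn4 and 9.29% of endothelial cells (unthinned 52.5% of members, 12.7% of AT2 cells without Cldn4 and 15.6% of endothelial cells). Ifit1bl1 and Ifit3b, relatives of Ifit3, were also among these 12, with ratios over AT2 cells without Cldn4 of 19.7 and 6.55, and since Ifit3 and Ifit3b are near copies their counts may share reads. Over the AT1 class the log2 ratio of Irf7 was 0.82 in members above Sftpc background, in place of 1.89.

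The genes lowest against AT2 cells without Cldn4 were partly a product of the rule. Among the 15 lowest were Ube2c, Birc5, Ccna2 and Top2a, genes of dividing cells, which the members' cycling limit removes. With the same limit on AT2 cells without Cldn4 the log2 ratios were -0.86, -0.69 and -2.35 for Ube2c, Birc5 and Ccna2 and 0.75 for Top2a. These ratios rest on few member UMI. At and above Sftpc background members held 4 and 5 of Ube2c, 4 and 6 of Birc5, 1 and 0 of Ccna2, and 1 and 5 of Top2a, itself a gene of the rule. Outside that group Lyz1, a second lysozyme gene, had 13.6 CPM in members and 235 in AT2 cells without Cldn4, and the peroxisomal oxidase gene Acoxl had 5.49 in members and 51.7 in AT2 cells without Cldn4. The log2 ratio of Lyz1 was -4.11 over all members, -4.45 among cells within the quartile range of the members' depth, and -0.42 when members were chosen after thinning. Il33, the alarmin named in the series title, had 67.8 CPM in members, 177 in AT2 cells without Cldn4 and 57.8 in the AT1 class, a log2 ratio of -1.39 over AT2 cells without Cldn4. After thinning it was seen in 15.4% of members, 37.2% of AT2 cells without Cldn4 and 3.36% of endothelial cells, and 1 member held 49 of its 210 UMI.

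Further lists are given by their counts. Of 21 keratin, claudin and adhesion genes 16 were past 2-fold higher in members than in AT2 cells without Cldn4 and none lower (10 after scaling), and of 19 genes of lung tumour progression states 14 were higher and none lower (7 after scaling, with 1 lower), where 10.5% of all genes were higher and 3.82% lower. In the CD45-positive library 17 of 19 adhesion genes were higher and 1 lower (9 higher and 1 lower after scaling). Of 19 progression genes there 6 were higher and 3 lower (3 higher and 3 lower after scaling). Among all tested genes of that library 7.2% were higher and 8.16% lower. Of 18 NF-kB and inflammatory genes 9 were higher and 3 lower, against 5 higher and 6 lower of 19 in the CD45-positive library. Summed per cell, the NF-kB list had a median of 17.5 per 10000 UMI in members. It was 29.5 in AT2 cells without Cldn4 and 11.7 in the AT1 class. This sum includes the abundant Lcn2, which was lower in members, and the sum without Lcn2 was not taken. In the CD45-negative library, of 6 epithelial cytokine genes 1 was higher and 3 were lower. Of 25 lineage transcription factors 7 were higher and 2 lower, of 18 glycolysis and hypoxia genes 3 were higher, a share near that of all genes, and of 26 cytoskeleton genes 10 were higher. Cdkn2a, the tumour suppressor locus that restrains division, had 115 CPM in members, 51.5 in AT2 cells without Cldn4 and 146 in the AT1 class, and its log2 ratio of 1.16 was 0.85 after the scaling.

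Markers of other cell types are given as summed levels per cell. Leukocyte markers without Lyz2 summed to a median of 0.34 per 10000 UMI in members, 0 in AT2 cells without Cldn4 and 0.30 in the AT1 class, with a range of 0 to 4.04 in members, and Ptprc had 6 UMI over all members. Their means went the other way, with 0.51 in members and 0.68 in AT2 cells without Cldn4. The sum was 0 in 45.7% of members and in 66.7% of the shallower AT2 cells without Cldn4. Medians near 0 here and below are not matched for depth. Endothelial markers summed to a median of 2.50 in members, 3.06 in AT2 cells without Cldn4 and 2.62 in the AT1 class, against 129 in endothelial cells. Mesothelial markers had medians of 0.38 in members, 0 in AT2 cells without Cldn4 and 0.74 in the AT1 class, with 1 member at 78.6, and basal cell markers could not be tested for lack of counts. Ciliated cell markers were higher in members, with a median of 1.19, against 0 in AT2 cells without Cldn4, 0 in the AT1 class and 1.71 in endothelial cells. Of this list Tppp3, a tubulin-binding protein, had 285 CPM in members, 80.9 in AT2 cells without Cldn4 and 54.8 in the AT1 class, while Foxj1, the defining factor of ciliated cells, had 3 UMI in all members. Fibroblast markers had a median of 0.47 in members, 0 in AT2 cells without Cldn4 and 1.0 in the AT1 class. Club cell markers had 4.79 in members, 6.22 in AT2 cells without Cldn4 and 4.02 in the AT1 class, and erythroid markers had 7.37 in members, 8.27 in AT2 cells without Cldn4 and 6.88 in the AT1 class, with a highest member at 3315. The part of such transcripts in the differences above was not tested. No doublets were removed. The largest members reached 115711 UMI, and without the members above the 90th percentile of depth no named gene that was past 2-fold changed direction.

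The same rule in the CD45-positive library, which the choice of members did not use, gave 57 of 1324 AT2 cells (4.31%, 3.28 to 5.54%), set against 1169 AT2 cells without Cldn4. There 598 of 8309 genes were past 2-fold higher (7.2%) and 678 lower (8.16%). Ager had 2498 CPM in Cldn4-expressing and 1106 in AT2 cells without Cldn4 of that library, a ratio of 2.26 (2.14 to 2.39). Krt8 had 1655 in Cldn4-expressing and 322 in AT2 cells without Cldn4, a ratio of 5.14, Areg had 846 in Cldn4-expressing and 172 in AT2 cells without Cldn4, a ratio of 4.93, and Sftpc had 39266 in Cldn4-expressing and 112918 in AT2 cells without Cldn4, a ratio of 0.348. The directions of these 4 genes were those of the CD45-negative library, where the ratios were 2.19 for Ager, 4.79 for Krt8, 5.92 for Areg and 0.243 for Sftpc. Of 20 AT1 markers tested 12 were past 2-fold higher and none lower (9 higher and 1 lower after scaling). Of 25 transitional genes 16 were higher and 2 lower (15 and 2 after scaling), and of 20 AT2 markers none was higher and 9 were lower (12 after scaling). All tested genes there had a median log2 ratio of 0.19. Depth was unequal there too, with a median of 9418 UMI and 2582 genes in Cldn4-expressing AT2 cells. AT2 cells without Cldn4 had 4061 UMI and 1356 genes, and the part of depth in these values was not tested.

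**Figure D5:**
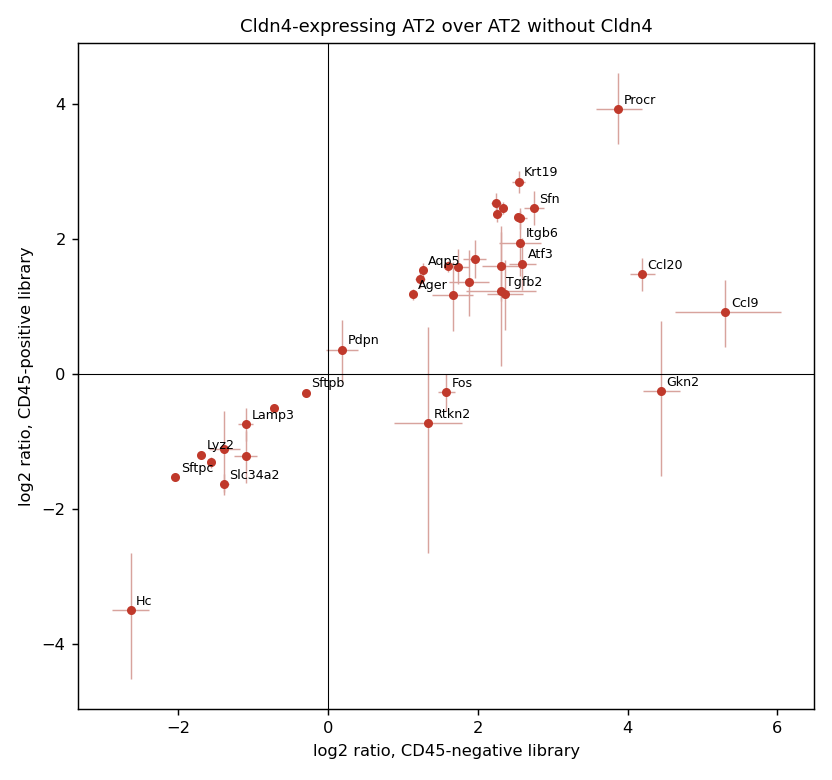
Log2 ratio of Cldn4-expressing AT2 cells over AT2 cells without Cldn4 for 37 named genes in the CD45-negative library (x axis) and the CD45-positive library (y axis), with 95% intervals for counting error and some genes labelled. AT2 markers lie at the lower left, keratin and most AT1 genes at the upper right, and Gkn2, Fos and Rtkn2 are above 0 in the CD45-negative library and below 0 in the CD45-positive one.

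The genes held by few cells differed between the libraries. Gkn2 had 8 UMI in the 57 cells, a ratio of 0.839 (0.352 to 1.72), and Ccl9 had a ratio of 1.88 (1.32 to 2.63). Ccl20 had a log2 ratio of 1.47, which was -2.03 without cells that had a UMI of the leukocyte genes Ptprc, Laptm5 or Tyrobp. Only 12 of the 57 cells remained in that setting, so for a gene of few cells the change of sign cannot be tied to leukocyte transcripts. Of the 15 genes with the highest ratios in the CD45-negative library 13 could be tested, 12 of them were on the same side of 1 and 6 were past 2-fold. Of the 15 lowest, 9 could be tested, 8 were on the same side and 7 were past 2-fold; Lyz1 was not, with a log2 ratio of 0.72. Of the genes past 2-fold higher in the CD45-negative library and tested in both, 315 of 743 (42.4%) were also past 2-fold higher in the CD45-positive library, which is 52.7% of its 598. Of the lower genes 121 of 210 (57.6%) were also past 2-fold lower there, which is 17.8% of its 678. Leukocyte markers without Lyz2 were higher in that library and unequal, with a median of 5.54 per 10000 UMI in Cldn4-expressing AT2 cells and 15.9 in AT2 cells without Cldn4, and their part in the lower genes there was not tested.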

How the data were processed

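Droplet single-cell RNA sequencing (10x 3' V2) was done on 1 CD45-negative and 1 CD45-positive library, per the labels' protocols and the series' design text, with 6000 cells loaded per channel and 98 bp reads. Reads were aligned to mm10 and UMI collapsed with Cell Ranger 1.1.0, per the series' design text. The deposited values are UMI counts per gene and cell, not normalized, with the authors' cell classes in a second table; the labels do not say how the classes were made. Doublets were not removed.

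Counts were summed per group and divided by the group's total. Intervals are exact Poisson for levels, exact conditional binomial for ratios and Clopper-Pearson for shares, at 95%, for counting error only. Ratios were taken for genes with at least 50 UMI over both groups, without Cldn4. Shares of cells were also taken after thinning to 4000 UMI. The scaling alternative subtracts the median log2 ratio of genes with at least 500 UMI. Genes named are the 15 highest and 15 lowest ratios over AT2 cells without Cldn4, the 10 highest and 10 lowest over the AT1 class and the 12 farthest above both (minimum 100 UMI), up to 6 genes per list, and markers; a selection of these is described. Members and lists were chosen with earlier results of these data known. The scripts were tested on simulated data, Poisson counts of summed groups. That simulation held no variation between cells and no choice of cells by a gene, so it does not cover either. Tools were scipy 1.17.1 for intervals, pandas 2.3.3 and numpy 2.4.6 for tables and matplotlib 3.10.9 for plots, under Python 3.11.15.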

Additional observations from a re-analysis of the deposited data

How the results depend on the processing

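No paired analysis was possible because each fraction is 1 library and no comparison rests on a test between samples. Counts of genes past 2-fold moved most with the minimum of UMI per gene. With no minimum, 2654 genes were higher and 2539 lower in members than in AT2 cells without Cldn4, 2530 higher and 1972 lower than in the AT1 class, and 922 above both. With at least 200 UMI these counts were 551 and 171, 298 and 230, and 56, since fewer genes were tested. Scaling on the median ratio gave 508 higher and 648 lower genes over AT2 cells without Cldn4 and 74 above both. Means of per-cell levels gave 224 genes above both. Members chosen after thinning had 643 higher genes. Splits chosen after seeing the data gave 74 genes above both for members above Sftpc background, and 1599 higher genes over AT2 cells without Cldn4 and 286 above both for members at background. In the CD45-positive library, leaving out cells with a leukocyte UMI left 12 Cldn4-expressing cells and gave 267 lower genes. A minimum of 1 Cldn4 UMI gave 341 higher and 339 lower there. Other random draws of the thinning gave 9.88% of members with Il33, against 15.4%, and 82.7% with Krt19, against 75.9%. The ratio of median summed AT1 markers over AT2 cells without Cldn4 was 2.81 with a shorter list, in place of 4.44.

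Directions turned mostly for genes held by few cells. Dpcr1 had log2 ratios over the AT1 class of -0.95 with at least 3 Cldn4 UMI and -0.53 without leukocyte-UMI cells, and -2.73 over AT2 cells without Cldn4 for members chosen after thinning. Ccl9 had -1.50 over AT2 cells without Cldn4 and -3.78 over the AT1 class for members above Sftpc background. For members at background, Dlk1 had -5.63 and -1.86 and Gkn2 -2.01 and -1.16 over the same groups. Sftpc, which is not a gene of few cells, had -0.41 over the AT1 class for members at background, where Sftpc itself made the split. Tff1 had -0.51 over AT2 cells without Cldn4 without its first cell, an alternative chosen after seeing the data. Ccl20 had -2.03 in the CD45-positive library without leukocyte-UMI cells, where 12 Cldn4-expressing cells remained. Top2a, a gene of the rule with few UMI in members, had 0.75 with the cycling limit on both groups. The cause was not tested, except that the cycling limit, the left-out cell and the Sftpc split for Sftpc itself act by construction.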
